A study of Homo sapiens with 2 samples.

Results

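The BCL2 family decides whether the outer membrane of the mitochondrion stays intact, and 10 of its genes were followed here by their symbols among 57169 distinct gene symbols measured in A2780 cells. The 10 genes fall into 3 roles: the pro-survival BCL2, BCL2L1 and MCL1, the effectors BAX and BAK1, and the BH3-only genes BBC3, PMAIP1, BCL2L11, BID and BAD. A2780 is an established human ovarian cancer cell line. RNA was sequenced from cells labelled shControl and from cells labelled shJAM3. The genotype of the shControl cells is given as WT, and the design text describes them as carrying an empty vector. The shJAM3 cells are described as having a stable knockdown of the adhesion molecule gene JAM3. Each group was 1 library of cells grown under standard conditions to logarithmic phase, so no difference below has a replicate check, and no p-value can be given for the conditions.

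As background, effector proteins form pores that release cytochrome c, pro-survival proteins hold the effectors and their activators in check, and BH3-only proteins relay stress signals by occupying the pro-survival proteins or by activating the effectors. BBC3 encodes PUMA and PMAIP1 encodes NOXA. BCL2L11 encodes BIM, BCL2L1 encodes BCL-XL, and BAD is the member that AKT and other kinases inactivate by phosphorylation. Much of this control acts on proteins, which were not measured.

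Depth was 15570262 gene-assigned fragments in shControl and 16455079 in shJAM3. Levels are in FPKM, the number of fragments per kilobase of a gene, scaled to the size of the library. Ratios are shJAM3 over shControl, and each bracketed 95% interval covers counting error only. JAM3 itself was low in both libraries, at 0.215 FPKM in shControl and 0.154 in shJAM3, from 18 and 14 fragments. The ratio was 0.716 (0.330 to 1.52), so a difference in the targeted gene was not detectable at this level and depth. The knockdown therefore could not be checked in these libraries. NCAPD3 on the opposite strand covers 8.53% of the JAM3 exon bases and had 3847 and 5472 fragments, so the JAM3 value carries that uncertainty too. Of the 9 markers of epithelial and ovarian carcinoma cells, KRT8, KRT18 and KRT7 had a mean of at least 1 FPKM. Of the 6 below that level, PAX8 was at 1.12 and 0.527 FPKM, EPCAM at 0.904 and 0.690, and WT1 had 1 fragment in shControl and none in shJAM3. MUC16, which encodes the antigen CA-125, was at 0.475 and 1.07 FPKM, for a ratio of 2.25 (1.98 to 2.57), CDH1 was at 0.169 and 0.243, and KRT19 had 1 and 3 fragments. Together the 9 summed to 426 FPKM in shControl against 415 in shJAM3, a sum that hides differences in both directions. KRT7 was at 140 and 93.4 FPKM, for a ratio of 0.666 (0.645 to 0.688). KRT8 and KRT18 were higher in shJAM3, with ratios of 1.11 (1.08 to 1.13) and 1.14 (1.11 to 1.18). Of the 8 markers of other cell types only COL1A1 reached 1 FPKM, and the leukocyte gene PTPRC had no fragment in either library. The summed level of the 8 was 13.9 and 11.9 FPKM, most of it from COL1A1 at 13.5 and 11.3.

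All 10 members were present in the table, and 9 had a mean of at least 1 FPKM, the level taken as measured. None of them differed 2-fold between the libraries. That rule of size, a log2 ratio of FPKM + 1 of at least 1 in either direction, was passed by 3.41% of all measured genes and by 1.8% of measured protein-coding genes. Of the 9 measured members 4 were higher in shJAM3 and 5 lower, with a median log2 ratio of FPKM of -0.04, against -0.01 for all measured protein-coding genes. The counting interval excluded 1 for 6 of the 9, and it did so for 71.3% of measured protein-coding genes. That share of the family was thus near the background. Scaling the libraries to their totals of fragments left 4 of the 9, without BAK1, BCL2L11 and BAD and with BCL2L1. The member furthest below 1 was BBC3 at a ratio of 0.560, and the measured member furthest above 1 was BID at 1.33.

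**Figure D1:**
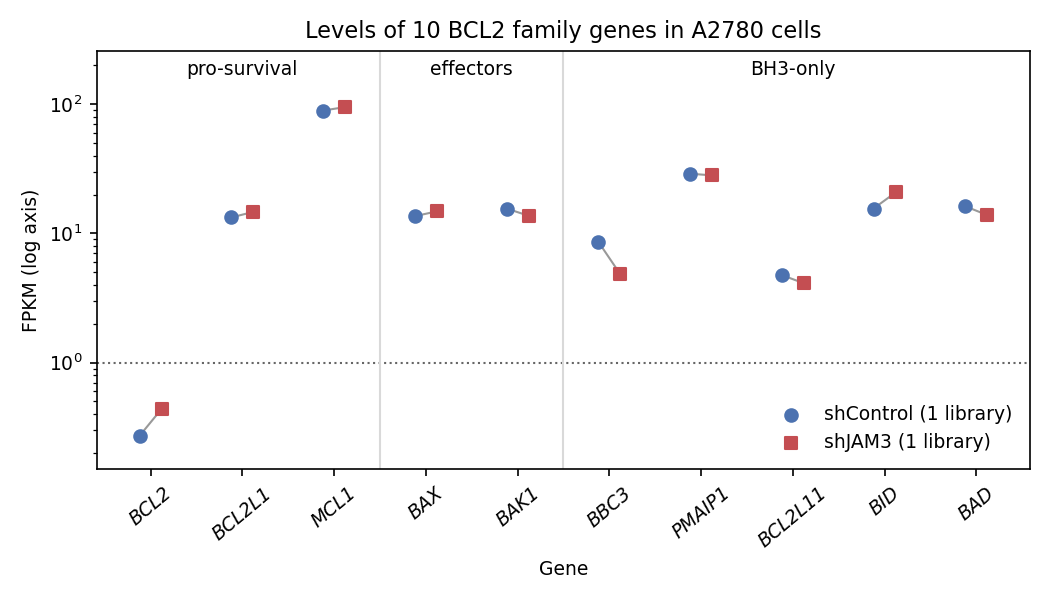
FPKM of the 10 genes on a log axis, by role, with a circle for the shControl library and a square for the shJAM3 library (1 library each, no error bars). MCL1 lies highest in both libraries, BCL2 lies below the dotted line at 1 FPKM in both, and BBC3 and BID show the clearest steps among the measured genes.

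The ratio of a gene between these libraries moved with the GC content of its transcripts, and this touches the small differences of the family. When measured protein-coding genes were split into 20 equal groups by GC, the median log2 ratio ran from 0.33 at the low-GC end to -0.58 at the high-GC end. BBC3 and BAD, at 64.5% and 65.2% GC, belong to the highest group, whereas PMAIP1 has 43.6%. The ratios of the members and of the genes named beside them are therefore also given after subtracting the median log2 ratio of the GC group, which is called centring. Centring moved MCL1, BAK1 and BAD to the other side of 1. BBC3, BCL2L11 and BID had intervals that excluded 1 on the same side before and after it, although for BID centring subtracted almost nothing. What the GC trend contributes to any single gene was not tested.

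**Figure D2:**
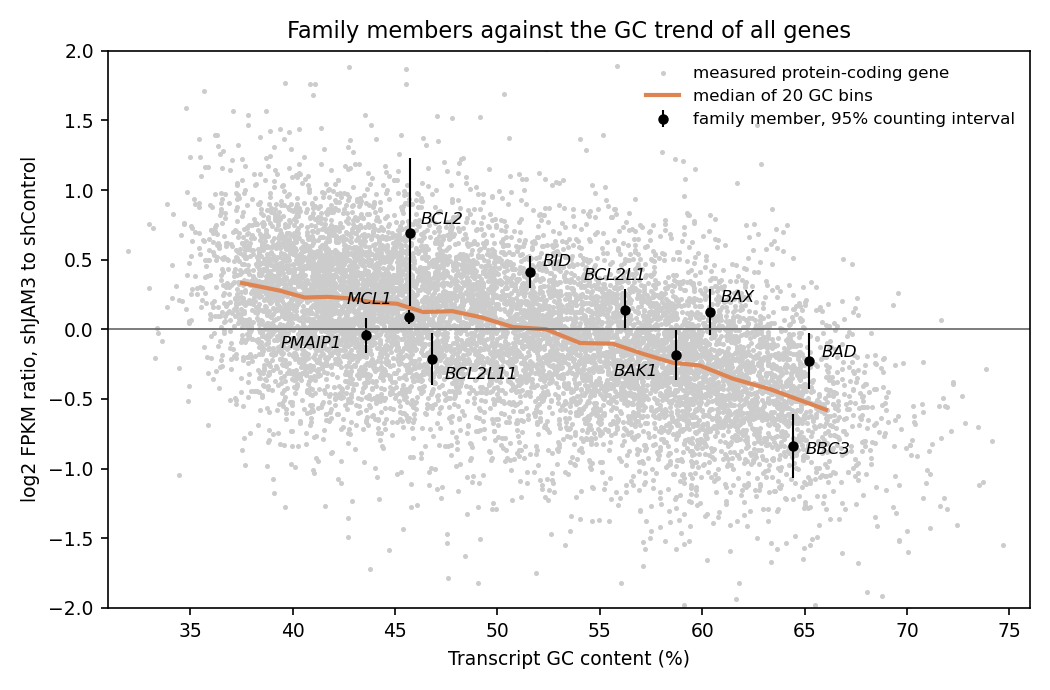
Log2 FPKM ratio (shJAM3 to shControl) against transcript GC content in percent. Grey points are measured protein-coding genes (22 of 10499 lie outside the plotted range), the line joins the medians of 20 GC groups, and black points with bars are the family members with 95% counting intervals. BAX and BAD lie above the line at high GC, BBC3 lies below it, and BID lies above it near the middle.

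Among the pro-survival genes MCL1 was by far the most abundant and BCL2 the least, at under 1 FPKM in both libraries. MCL1 (ENSG00000143384, chr1:150574551-150579738, minus strand, GRCh38), whose protein is short-lived and binds NOXA and BIM, was at 89.5 FPKM in shControl against 95.2 in shJAM3, from 6012 and 6940 fragments. Its mean level lay above that of 96.4% of measured protein-coding genes. The ratio was 1.06 (1.03 to 1.10), and after centring it was 0.936 (0.904 to 0.969), so the direction of this small difference turned with the GC correction.

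BCL2L1 (ENSG00000171552, chr20:31664452-31723989, minus strand), which encodes the anti-apoptotic BCL-XL and, by splicing, the pro-apoptotic BCL-XS, was at 13.3 FPKM in shControl against 14.7 in shJAM3. The ratio was 1.10 (0.995 to 1.22), an interval that includes 1. After centring it was 1.19 (1.07 to 1.31). The table gives 1 value per gene, so the long and the short form cannot be told apart. The antisense gene ABALON covers 43.0% of the BCL2L1 exon bases and had 33 and 34 fragments. No step that marks the strand is described, so fragments from the shared stretch cannot be assigned to either gene.

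BCL2 (ENSG00000171791, chr18:63123346-63320128, minus strand), the founding member of the family, was at 0.271 FPKM in shControl against 0.438 in shJAM3, from 49 and 86 fragments. It did not reach the level taken as measured. Its ratio of 1.62 (1.13 to 2.35) was the highest of the 10 genes, and the interval included 1 after centring, at 1.42 (0.991 to 2.07). On the scale of FPKM + 1, the log2 ratio was 0.18.

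The effectors had similar FPKM and differed little between the libraries. BAX (ENSG00000087088, chr19:48954815-48961798, plus strand) was at 13.6 FPKM in shControl against 14.8 in shJAM3, for a ratio of 1.09 (0.970 to 1.22). After centring, the ratio was 1.30 (1.16 to 1.47), which placed BAX at percentile 85.8 of the 525 genes in its GC group. BAK1 (ENSG00000030110, chr6:33572547-33580293, minus strand) was at 15.6 and 13.7 FPKM, for a ratio of 0.879 (0.777 to 0.995), and at 1.04 (0.918 to 1.18) after centring. Its processed copies BAK1P1 and BAK1P2 had 7 and 2 fragments in shControl and 3 and 0 in shJAM3, against 530 and 506 for BAK1. The ratio of BAX to BAK1 was 0.873 in shControl and 1.08 in shJAM3, so it was 1.24 times as high in shJAM3 (1.04 to 1.47), and 1.26 times after centring.

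The BAX promoter is shown because it is dense in one short motif. The window runs from 250 bases before to 50 after the RefSeq start site (GRCh38.p14, chr19:48954625-48954924, plus strand) and holds the E-box letters CACGTG, read on both strands, 4 times, in capitals below. One or more such matches stood in 7.26% of 35116 promoters of the same length, and 4 or more in 5 of them, a share of 0.0142%. BAX is itself among those 5. It was picked for this density from the promoters of 9 members searched for several motifs, so the share is a description and not a test.
BAX promoter: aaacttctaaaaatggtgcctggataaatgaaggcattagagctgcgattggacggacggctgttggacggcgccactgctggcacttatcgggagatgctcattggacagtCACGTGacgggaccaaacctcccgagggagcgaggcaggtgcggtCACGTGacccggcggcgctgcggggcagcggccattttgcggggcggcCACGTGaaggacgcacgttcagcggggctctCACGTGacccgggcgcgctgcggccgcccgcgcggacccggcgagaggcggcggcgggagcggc
CACGTG is the core bound by several basic helix-loop-helix factors. A match describes the letters and says nothing of binding in these cells.

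BBC3, which encodes PUMA, a BH3-only protein able to bind every pro-survival member, was the family gene with the largest difference before centring. After centring BCL2, BID, BAX, BAD and BCL2L11 lay further from 1 than BBC3 did. BBC3 (ENSG00000105327, chr19:47220822-47232766, minus strand) was at 8.62 FPKM in shControl against 4.83 in shJAM3, from 421 and 256 fragments. The ratio was 0.560 (0.478 to 0.656), a position at percentile 5.29 among measured protein-coding genes. After centring, the ratio was 0.836 (0.713 to 0.978), at percentile 25.0 of its GC group. BBC3 sits close to the lower edge of that group, which is 64.4% GC. With the running median of the 500 genes nearest in GC in place of groups, the ratio was 0.775 (0.661 to 0.907). BBC3 was thus lower in the shJAM3 library under each of these corrections, by an amount that depended on them. The microRNA genes MIR3190 and MIR3191, which lie in its exons, had no fragment in either library.

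The sequence around the RefSeq start of BBC3 is shown because this gene had the largest difference before centring and because its GC content contrasts with that of its transcripts. The 300 bases (GRCh38.p14, chr19:47232618-47232917, minus strand) hold 48.0% GC and 5 CpG, against medians of 58.7% and 14 over all 35116 promoters. The RefSeq start lies 99 bases inside the outermost GENCODE start of the gene. Capitals mark, in order, an E-box (CACGTG), an AP-1 site (TGANTCA) and a CCAAT box (CCAAT, on the other strand), none of which overlap. Over all promoters these letters stood in 7.26%, 7.71% and 34.6%.
BBC3 promoter: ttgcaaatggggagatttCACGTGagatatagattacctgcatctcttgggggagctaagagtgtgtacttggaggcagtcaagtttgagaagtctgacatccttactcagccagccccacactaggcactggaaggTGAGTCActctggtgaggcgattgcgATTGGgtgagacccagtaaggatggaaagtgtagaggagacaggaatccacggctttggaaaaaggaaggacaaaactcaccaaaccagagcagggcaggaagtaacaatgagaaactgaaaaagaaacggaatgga

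BID was the measured member with the highest ratio. The median log2 ratio of its GC group was 0.0004, so centring could hardly move its value. BID (ENSG00000015475, chr22:17734138-17774770, minus strand), whose protein links death receptors to mitochondria after cleavage by caspase 8, was at 15.6 FPKM in shControl against 20.8 in shJAM3, from 1066 and 1541 fragments. The ratio was 1.33 (1.23 to 1.44), and it was 1.33 (1.23 to 1.44) after centring, at percentile 86.5 of its GC group. CASP8, the gene of that protease, was at 1.94 and 3.38 FPKM, for a ratio of 1.74 (1.47 to 2.06), or 1.52 (1.29 to 1.80) after centring.

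The BID promoter is shown beside that of BBC3 as the other end of the family's range. Its 300 bases (GRCh38.p14, chr22:17774420-17774719, minus strand) hold 71.7% GC and 37 CpG. The GC box GGGCGG, read on both strands, matched 4 times with no overlap, in capitals, and at least 1 match stood in 45.0% of all promoters.
BID promoter: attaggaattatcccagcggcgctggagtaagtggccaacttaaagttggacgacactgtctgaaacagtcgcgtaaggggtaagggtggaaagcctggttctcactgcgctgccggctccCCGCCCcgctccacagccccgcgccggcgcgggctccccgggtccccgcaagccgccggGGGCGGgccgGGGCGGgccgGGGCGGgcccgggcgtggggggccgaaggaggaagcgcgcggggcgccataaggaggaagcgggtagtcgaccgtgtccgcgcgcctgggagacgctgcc
The RefSeq start of BID lies 301 bases inside its outermost GENCODE start. The transcripts of BID have 51.6% GC and those of BBC3 64.5%, so these windows and the transcripts rank in opposite order. Each gene has a single window here, although BBC3 has 6 annotated transcripts and BID 15. Windows at other start sites were not examined.

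Before centring the other BH3-only genes differed by less than BBC3 and BID, whereas after it BCL2L11 and BAD lay further from 1 than BBC3. PMAIP1 (ENSG00000141682, chr18:59899948-59904306, plus strand), whose product NOXA binds MCL1, was the second most abundant of the 10 genes, at 29.04 FPKM in shControl against 28.2 in shJAM3. Its ratio was 0.970 (0.889 to 1.06), and after centring 0.848 (0.777 to 0.926). BCL2L11 (ENSG00000153094, chr2:111119378-111168447, plus strand), which encodes the activator BIM and is a FOXO3 target, was at 4.76 and 4.12 FPKM. Its ratio was 0.864 (0.759 to 0.984), and 0.793 (0.697 to 0.903) after centring, so it was on the lower side both times. With the libraries scaled to their totals of fragments the uncentred ratio was 0.888 (0.780 to 1.01), an interval that includes 1. The lincRNA gene MIR4435-2HG on the opposite strand covers 10.9% of its exon bases and had a level of 1.07 and 1.25 FPKM. FOXO3 was at 5.78 and 5.34 FPKM, for a ratio of 0.925 (0.831 to 1.03), and 0.872 (0.783 to 0.970) after centring.

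BAD (ENSG00000002330, chr11:64269830-64284704, minus strand), a sensitizer that binds BCL-XL and BCL2, was at 16.2 FPKM in shControl against 13.9 in shJAM3. The ratio was 0.854 (0.743 to 0.982), but 1.27 (1.11 to 1.46) after centring, at percentile 83.1 of the same GC group that holds BBC3. BAD and BBC3, of almost equal transcript GC, thus lay on opposite sides of that group's median. GPR137 on the opposite strand covers 23.7% of the BAD exon bases and was at 13.6 and 9.61 FPKM, so the BAD value carries that uncertainty.

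**Figure D3:**
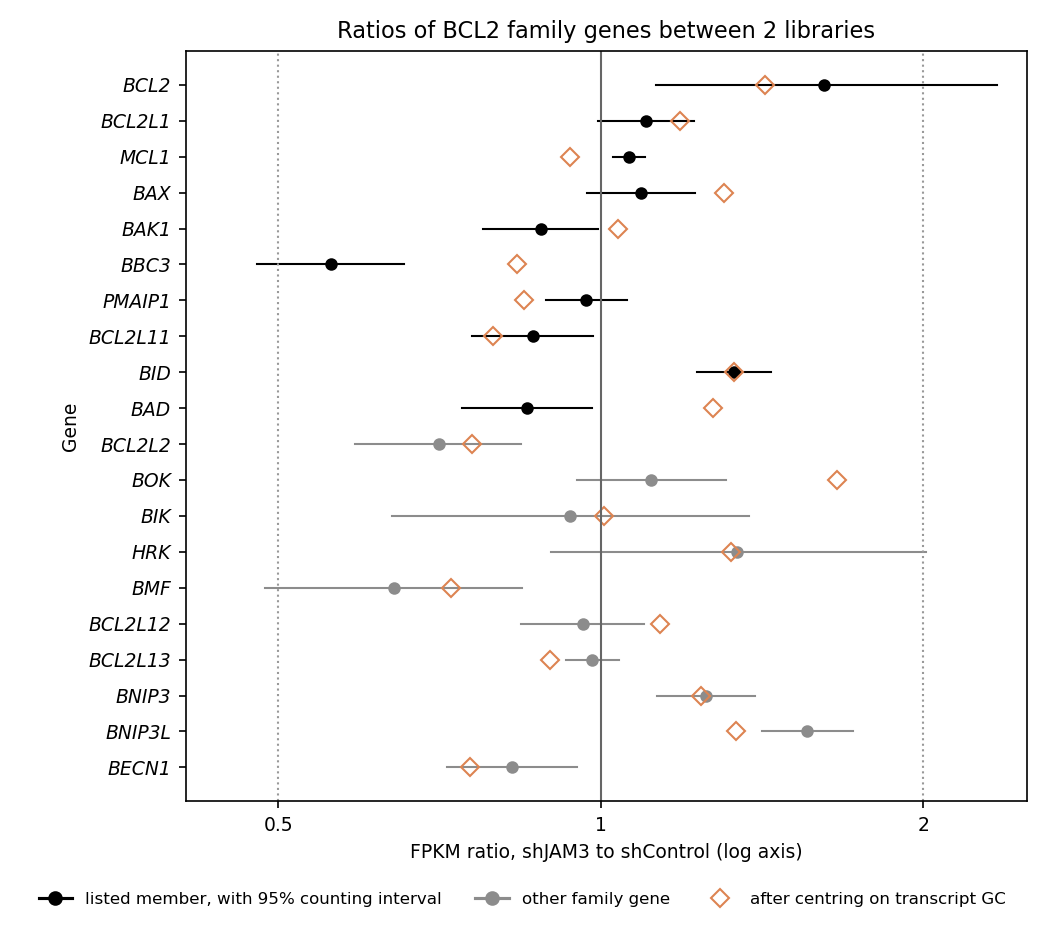
FPKM ratios of shJAM3 to shControl on a log axis for the 10 members (black) and for 10 other family genes with at least 10 fragments in each library (grey), with 95% counting intervals as bars. Open diamonds give the ratio after centring on transcript GC. BBC3 is the member nearest to the dotted line at 0.5, and the diamonds of MCL1, BAK1 and BAD lie across the line at 1 from their points.

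The order of levels within each library was compared with intervals for counting error alone. FPKM divide by the length of all annotated exons of a gene merged, so levels of different genes also carry an error of length. BAX has 2587 such bases against 1358 in its longest transcript, whereas BAK1 has 2212 in both. What this does to the order was not tested. Ratios of the same gene between the libraries do not carry this error if both use the same mix of transcripts, which was not tested. In shControl the order was MCL1, PMAIP1, BAD, BID, BAK1, BAX, BCL2L1, BBC3, BCL2L11 and BCL2. The neighbours BAD and BID, BID and BAK1, and BAX and BCL2L1 did not differ beyond counting error. In shJAM3 the order was MCL1, PMAIP1, BID, BAX, BCL2L1, BAD, BAK1, BBC3, BCL2L11 and BCL2, and there the neighbours from BAX through BCL2L1 and BAD to BAK1 did not differ beyond counting error. BID was level with BAK1 in shControl (ratio 1.00, 0.901 to 1.11) and stood above BAX, the next gene down, in shJAM3 (1.40, 1.28 to 1.54). BBC3 stood 1.81 times above BCL2L11 in shControl (1.58 to 2.07) and 1.17 times above it in shJAM3 (1.00 to 1.37).

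Ratios between members within a library do not depend on the scaling between libraries, although they still carry the GC trend. MCL1 stood 6.72 times above BCL2L1 in shControl and 6.48 times in shJAM3, for a ratio of ratios of 0.964 (0.864 to 1.07). After centring it was 0.790, with an interval that excluded 1. MCL1 stood 3.08 times above PMAIP1 in shControl and 3.38 times in shJAM3, for a ratio of ratios of 1.10 (0.997 to 1.205). After centring it was 1.10 (1.005 to 1.21). BCL2L1 stood 2.80 times above BCL2L11 in shControl and 3.57 times in shJAM3, so the ratio was 1.28 times as high (1.08 to 1.51), and 1.49 times after centring. BCL2L1 relative to BAD was 0.820 in shControl and 1.06 in shJAM3, 1.29 times as high (1.08 to 1.54). After centring it was 0.930 times as high (0.781 to 1.11), an interval that includes 1. BCL2 relative to BAX was 0.0199 and 0.0295, 1.48 times as high (1.01 to 2.19), or 1.09 times (0.744 to 1.61) after centring.

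Over all 45 pairs of members, a set examined after their values were seen, 32 changes had an interval that excludes 1. The share over pairs of all genes was not computed, and 71.3% of measured protein-coding genes had such an interval singly. The pairs also reuse the values of 10 genes, so these counts do not set the family apart. Before centring BBC3 was lower relative to each of the 9 others. After centring it was lower relative to all but BCL2L11, and the intervals against BCL2L11, MCL1 and PMAIP1 included 1. Its ratio to BID went from 0.552 to 0.232, for a ratio of ratios of 0.421 (0.352 to 0.502), or 0.628 (0.525 to 0.750) after centring. MCL1 stood 10.4 times above BBC3 in shControl and 19.7 times in shJAM3, for a ratio of ratios of 1.90 (1.61 to 2.23), but 1.12 (0.953 to 1.32) after centring. BCL2L1 stood 1.55 and 3.04 times above BBC3, for a ratio of ratios of 1.97 (1.63 to 2.38), or 1.42 (1.17 to 1.72) after centring. BBC3 relative to BAD had a ratio of ratios of 0.656 (0.530 to 0.811) with and without centring, since the genes share a GC group. The pairs at least 2-fold apart were BBC3 with BID and BBC3 with BCL2, and after centring no pair was. Of the 45 pairs 28 had an interval that excludes 1 after centring, 17 of them in the same direction as before with an interval that excluded 1 then too. Before centring PMAIP1 differed beyond counting error from 3 of the 9 others, the fewest of any member.

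**Figure D4:**
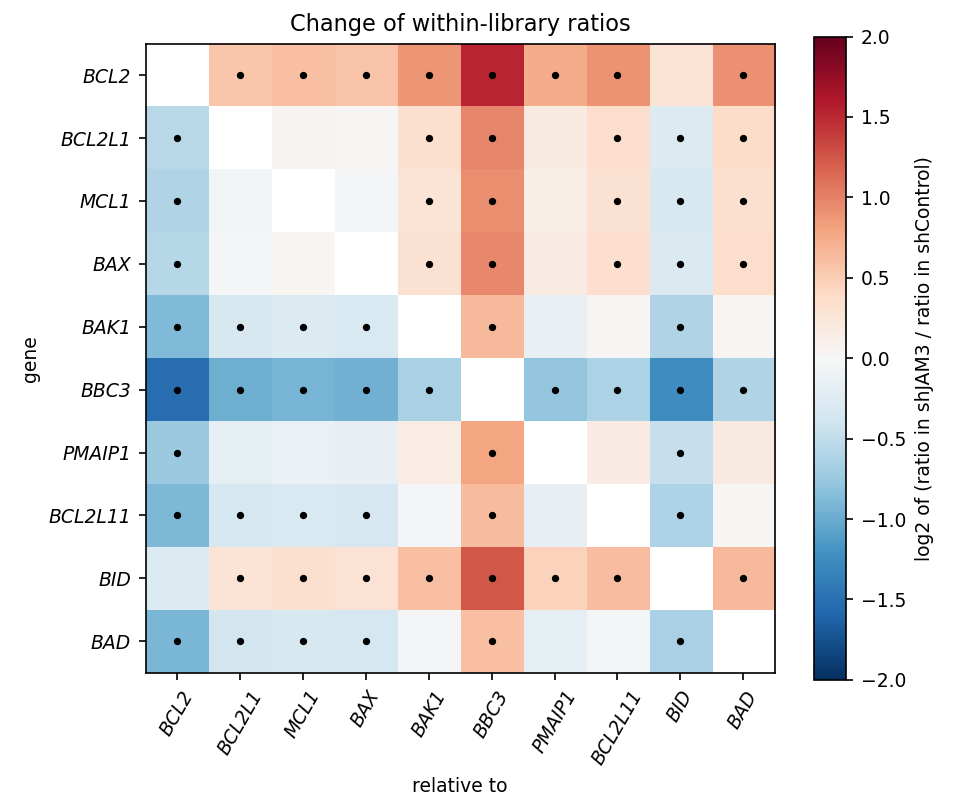
Change in the ratio of each row gene to each column gene between the libraries, as log2 of the shJAM3 ratio over the shControl ratio, before centring. Red means higher in shJAM3, and a dot marks a 95% counting interval that excludes no change (32 of 45 pairs, each shown in both orders). The BBC3 row is blue and dotted throughout, and the BCL2 and BID rows are mostly red.

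Summed by role, the family's composition was almost the same in the libraries. The summed level of the 10 genes was 207 FPKM in shControl against 211 in shJAM3. The pro-survival genes made up 49.9% of it in shControl and 52.4% in shJAM3, with MCL1 alone at 43.3% and 45.2%. Effectors made up 14.1% and 13.6%, and BH3-only genes 35.9% and 34.1%. Of the 5 BH3-only genes 4 were lower in shJAM3, with BID the exception, whereas after centring 3 were lower and 2 higher. These shares are of FPKM, carry the error of gene length named above and do not describe protein.

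The family genes outside the 10 also showed no 2-fold difference. Of these 14 genes 9 were measured, 3 higher and 6 lower, with a median log2 ratio of -0.06, and 5 were beyond counting error (55.6%, against the 71.3% above). BNIP3L, a mitophagy receptor, was at 9.93 FPKM in shControl against 15.5 in shJAM3, for a ratio of 1.56 (1.41 to 1.72), or 1.34 (1.21 to 1.47) after centring. Its relative BNIP3 had a ratio of 1.25 (1.13 to 1.39), or 1.24 (1.12 to 1.38) after centring. On the lower side were the pro-survival BCL2L2 at 4.52 and 3.19 FPKM (0.706, 0.590 to 0.843), the BH3-only BMF at 1.58 and 1.01 FPKM (0.642, 0.486 to 0.844) and the autophagy gene BECN1 at 0.827 (0.719 to 0.951). After centring BCL2L2, BMF and BECN1 were at 0.758, 0.725 and 0.756, with intervals below 1, and of the 9 genes 5 were higher and 4 lower. BCL2L2-PABPN1 on the same strand covers 19.4% of the BCL2L2 exon bases. CNTD1 and PSME3 on the opposite strand cover 12.4% and 4.68% of the BECN1 exon bases.

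The effector relative BOK had a ratio of 1.11 (0.950 to 1.31), and 1.66 (1.42 to 1.95) after centring, at percentile 96.7 of the GC group that also holds BBC3 and BAD. BIK, BCL2L12 and BCL2L13 had ratios of 0.937, 0.962 and 0.982, with intervals that include 1. After centring, BCL2L13 was at 0.898 (0.848 to 0.950). The exons of BCL2L12 are shared with IRF3 for 33.1% of their bases. HRK was at 0.418 and 0.560 FPKM. BCL2L10 had 2 fragments in each library, BCL2L14 and BCL2L15 had none in shControl and 2 in shJAM3, and BCL2A1 had none in either. For BCL2A1, a count of 0 allows up to 3 fragments, which is 0.179 FPKM in shControl against 0.165 in shJAM3, for counting error only.

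Of 16 measured partners and apoptosome genes 12 were higher in shJAM3 and 4 lower, with a median log2 ratio of 0.26. Most act with or after the effectors, whereas CASP8 acts before them and had the highest ratio of the list, 1.74 (1.47 to 2.06). Over the whole set of 10499 measured protein-coding genes the split was 5183 higher to 5316 lower. The median transcript GC of this list was 43.9%, and after centring 10 of its genes were higher and 6 lower, with a median of 0.10. VDAC1, a channel of the outer mitochondrial membrane, was at 91.3 and 149 FPKM, for a ratio of 1.64 (1.58 to 1.70). VDAC2, the channel that holds BAK at the membrane, was at 104.9 and 127.5 FPKM, for a ratio of 1.22 (1.17 to 1.26). CYCS, which encodes cytochrome c, was at 26.7 and 42.0 FPKM (1.57, 1.48 to 1.66), and the inhibitor of apoptosis gene BIRC2 had a ratio of 1.502 (1.32 to 1.72). The nuclease gene ENDOG was lower, at 50.7 and 32.4 FPKM (0.639, 0.576 to 0.707), and at 0.953 (0.860 to 1.06) after centring. After centring VDAC1, VDAC2, CYCS and BIRC2 were at 1.49, 1.12, 1.35 and 1.24, with intervals above 1. SPOUT1 shares 39.2% of the ENDOG exon bases.

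The list of kinases that act on BAD and of adaptor proteins that then sequester it held genes on both sides of 1. The genes named are those with the largest differences, and the kinases and adaptors were not compared as classes. Of 17 measured genes 7 were higher and 10 lower, with a median log2 ratio of -0.08, or -0.04 after centring. PIM3, a kinase able to phosphorylate BAD, was at 119 FPKM in shControl against 47.8 in shJAM3, for a ratio of 0.401 (0.380 to 0.423), or 0.599 (0.568 to 0.632) after centring. It was the single gene of this list past the 2-fold rule. PIM1 was at 35.4 and 21.5 FPKM (0.609, 0.563 to 0.658). Of the 14-3-3 adaptor genes, YWHAQ had a ratio of 1.53 (1.46 to 1.59), YWHAE of 1.49 (1.45 to 1.54) and YWHAZ of 1.41 (1.36 to 1.45). After centring PIM1 was at 0.654, YWHAQ at 1.34, YWHAE at 1.37 and YWHAZ at 1.23, and the intervals still excluded 1.

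Among enzymes that control the life of the MCL1 protein, 2 of 8 measured genes were higher and 6 lower, with a median log2 ratio of -0.09. After centring 1 was higher and 7 lower, with a median of -0.21. The list was not split by whether an enzyme shortens or lengthens that life, so these counts give no direction for MCL1. BTRC, a substrate receptor of an SCF ubiquitin ligase, was at 5.25 and 9.85 FPKM, for a ratio of 1.88 (1.69 to 2.09). MARCH5, a mitochondrial ubiquitin ligase, was at 15.2 and 10.3 FPKM (0.673, 0.613 to 0.738). GSK3B, the kinase that marks MCL1 for degradation, was at 27.4 and 19.3 FPKM (0.705, 0.670 to 0.742), its paralog GSK3A had a ratio of 0.770 (0.699 to 0.848), and CUL5 had a ratio of 1.24 (1.07 to 1.45). After centring, MARCH5 was at 0.555 (0.506 to 0.609), GSK3B at 0.617 (0.586 to 0.649), GSK3A at 0.870 (0.790 to 0.958) and BTRC at 1.65 (1.49 to 1.84). CUL5 was then at 0.987 (0.849 to 1.15), on the other side of 1 and with an interval that includes it.

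Of the 11 transcription factors known to act on family genes 3 were higher and 8 lower, with a median log2 ratio of -0.18, or 4 and 7 with a median of -0.19 after centring. E2F1 was at 132 and 84.7 FPKM (0.641, 0.614 to 0.670), or 0.865 (0.829 to 0.903) after centring. STAT3 had a ratio of 0.687 (0.662 to 0.714), NFKB1 of 0.731 (0.662 to 0.808) and JUN of 0.774 (0.721 to 0.831). ATF4, which drives PMAIP1 and BBC3 in the stress response, was at 134 and 173 FPKM, for a ratio of 1.29 (1.24 to 1.34). After centring STAT3 was at 0.679, NFKB1 at 0.689, JUN at 0.874 and ATF4 at 1.39, with intervals that excluded 1.

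**Figure D5:**
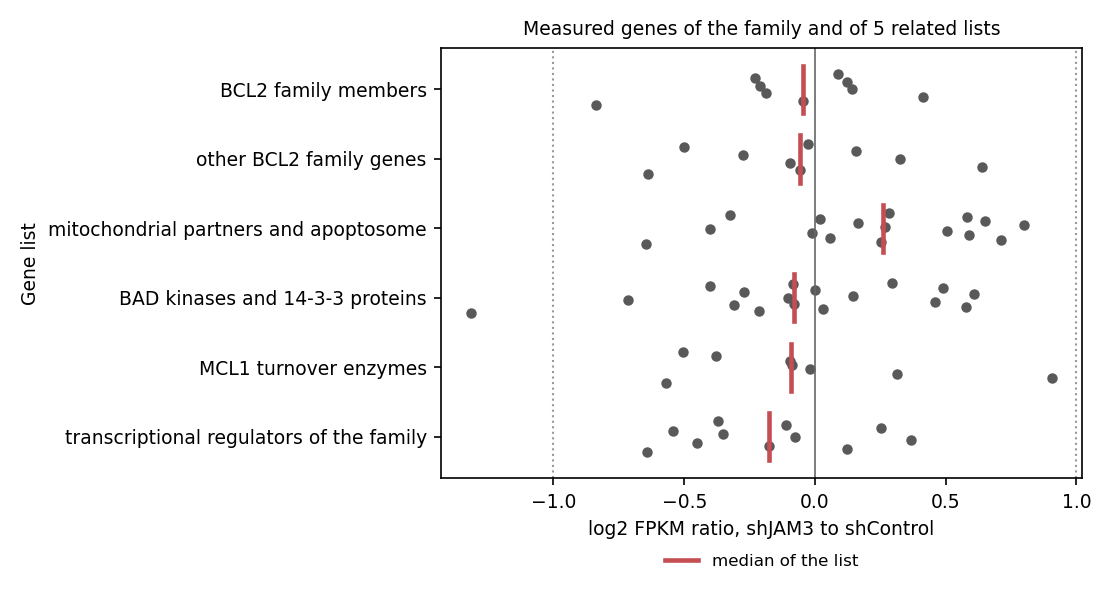
Log2 FPKM ratios (shJAM3 to shControl) of the measured genes of the family and of 5 related lists, 1 point per gene, spread vertically for legibility, with the median of each list as a red bar and dotted lines at 2-fold. PIM3 is the only point beyond the dotted lines, and the partners and apoptosome genes have the highest median, 0.26.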

How the data were processed

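Poly(A)-selected RNA from 2 A2780 libraries was sequenced, 1 labelled shControl and 1 labelled shJAM3. The authors deposited 1 table of FPKM for 58735 genes. Tools listed in the submitters' processing notes, without their roles, include the aligner HISAT2 2.0.5 and the counter featureCounts 1.5.0-p3. The genome build is not given in the labels. All 58735 identifiers, positions, strands and lengths matched GENCODE 29 (GRCh38).

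Multiplied by gene length, 100% of the deposited FPKM above 0 came out as whole numbers of fragments (tolerance 0.001). The FPKM imply library sizes of 15361731 and 16678451, so they include a scaling beyond the totals. Of rows sharing a symbol the one with the highest mean was kept, which left out 1566 rows. Ratios carry exact conditional binomial 95% intervals, and ratios of ratios exact conditional odds-ratio intervals (SciPy 1.17.1). PCR copies make them too narrow. The calculation was tested on counts simulated with counting error alone, without PCR copies or variation between cultures, so this checked only the arithmetic. Transcript GC was the length-weighted mean over GENCODE 29 transcripts. Promoters came from RefSeq (GRCh38.p14), with 9 of 10 members matched by symbol.

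The members and lists were chosen with earlier results of these data known. Named genes are the members, the other family genes, up to 5 measured genes of each list with the largest absolute log2 ratio of FPKM + 1, and VDAC2, JAM3 and genes overlapping a member. A gene of the rule, and the results that depend on it, are not reported here. FOXO3, the copies of BAK1 and NCAPD3, which overlaps JAM3, were added after their values were seen. Alternatives were other pseudocounts, scalings and filters, and corrections for GC.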

Additional observations from a re-analysis of the deposited data

How the results depend on the processing

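No paired analysis was possible because each group holds 1 library. No member passed the 2-fold rule under any alternative, and the ratios of BID, BCL2L11 and BCL2 stayed within their counting intervals under all of them; a mean of at least 5 FPKM leaves BCL2 and BCL2L11 out. Scaling to the total of fragments ended the calls beyond counting error of BCL2L11 at 0.888, BAK1 at 0.903 and BAD at 0.877, leaving 4 measured members in place of 6, and gave one to BCL2L1 at 1.13. All members that turned direction did so under GC centring alone. With 20 GC groups, a running GC median and the GC of the longest transcript, in that order, the ratio was 0.936, 0.958 and 0.961 for MCL1, 1.04, 1.03 and 1.04 for BAK1, and 1.27, 1.22 and 1.26 for BAD. BBC3 was at 0.836, 0.775 and 0.826. The latter pair of corrections was chosen after seeing the data. Centring on GC groups took the ratio of ratios of BCL2L1 to BAD to 0.930 and that of MCL1 to BCL2L1 to 0.790. Over all genes, 416 passed the rule, 838 with a pseudocount of 0.1 FPKM and 193 at a mean of at least 5 FPKM. Of those calls 26.9% were higher at a mean of at least 5 FPKM, against 38.2% as reported and 47.6% after centring on 20 GC groups. At a mean of at least 5 FPKM, 2 other family genes were lower in place of 6, as fewer were tested. Depth limits BCL2, with 49 and 86 fragments, more than any other member.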
